A study of Xenopus laevis with 32 samples.

Results

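Gene expression was compared between amputated tails of Xenopus laevis of the refractory period and of the regeneration period, 72 h after amputation in both. The comparison took 7 of the 32 libraries of the series: refractory 72 h B, C and D and regeneration 72 h A, B, C and D, the 72 h libraries that the authors' normalized tables hold. Refractory 72 h A was not used and its values are given separately. Each library was made from total RNA of 20 embryos, and the labels describe the letters as biological repeats. All tails were amputated and no agent or genetic change is named, so the groups differ in the labelled period. The extraction protocol names the regenerative stage for every sample, refractory samples included, so the exact stage of the refractory embryos is not settled here. The series was also used at 0 h, with 4 refractory and 3 regeneration libraries, to see which differences were present at amputation. There were no unamputated tails, so differences between the periods at the same age without injury cannot be told apart from those of the wound response.

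A young tadpole regrows an amputated tail with its spinal cord, notochord and muscle, but passes through a refractory period in which the stump heals without regrowth. In the regrowing tail a specialised wound epidermis covers the stump and signals to proliferating cells beneath it, the blastema, through the Wnt, FGF and BMP pathways. The homeobox factors of the msx and dlx families, sp8 and the Wnt effector lef1 are known for their roles in such appendage tips.

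Total counts per library were 2680015 to 3468181 in the refractory and 2973530 to 4022871 in the regeneration libraries. Expression is given as counts per 1000000 of the TMM-scaled library size (CPM). Replicates correlated at 0.934 to 0.959 within groups (Pearson's r over 10986 genes with a mean of at least 10 CPM), and the correlation between libraries of different groups was 0.897 to 0.937. Genes that define muscle (actc1), notochord and floor plate (shh), basal epidermis (tp63) and spinal cord (sox2) were detected in all 7 libraries. Genes of organs that a tail lacks were detected as well. Rhodopsin (rho.L, the light receptor of rods) stood at 211, 220 and 230 CPM in the refractory libraries and at 196, 128, 168 and 152 CPM in the regeneration libraries. The plasma protein gene fetub.S stood at 3376, 2894 and 3061 CPM against 2495, 2018, 2401 and 2128 CPM. Both genes were higher in every refractory library than in every regeneration library. The other rhodopsin copy, rho.S, stood at 230, 197 and 256 CPM against 229, 162, 145 and 176 CPM, and these ranges overlapped. The labels give the tissue as tail and name no eye or liver tissue.

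The summed level of 47 measured genes of the retina and lens was 1134 to 1296 CPM in refractory libraries and 739.5 to 1045 CPM in regeneration libraries. The sum of 40 genes of the liver, pancreas and gut was 7070 to 8085 CPM against 4699 to 5871 CPM. At 0 h the same sums were 1245 to 1620 against 893.9 to 1254 CPM and 7616 to 9670 against 5600 to 7654 CPM, and both pairs of ranges overlapped. Refractory 72 h A held 1872 and 10510 CPM, above all 7 libraries compared. Sums of muscle and neuron genes moved the same way at 72 h, and those of epidermal, tail tip, collagen matrix and Hox genes the other way. The tail tip sum was already apart at 0 h, at 2141 to 2323 CPM in refractory and 2539 to 2645 CPM in regeneration libraries. Hox sums (752.9 to 834 against 861.5 to 929.6 CPM) and neuron sums (4296 to 5428 against 3595 to 4262 CPM) were apart at 0 h too. The 0 h ranges of the muscle, epidermal and collagen matrix sums overlapped. Even so, 10 of 71 epidermal and goblet cell genes were called lower at 0 h, and 2 higher. In the liver, pancreas and gut list 4 of 40 were called higher at 0 h and 0 lower. Over all genes tested, 2.42% were called at 0 h. The part of tissue composition in the results below was not tested. In bulk tissue, fewer cells of a type and less RNA per cell cannot be told apart.

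**Figure D1:**
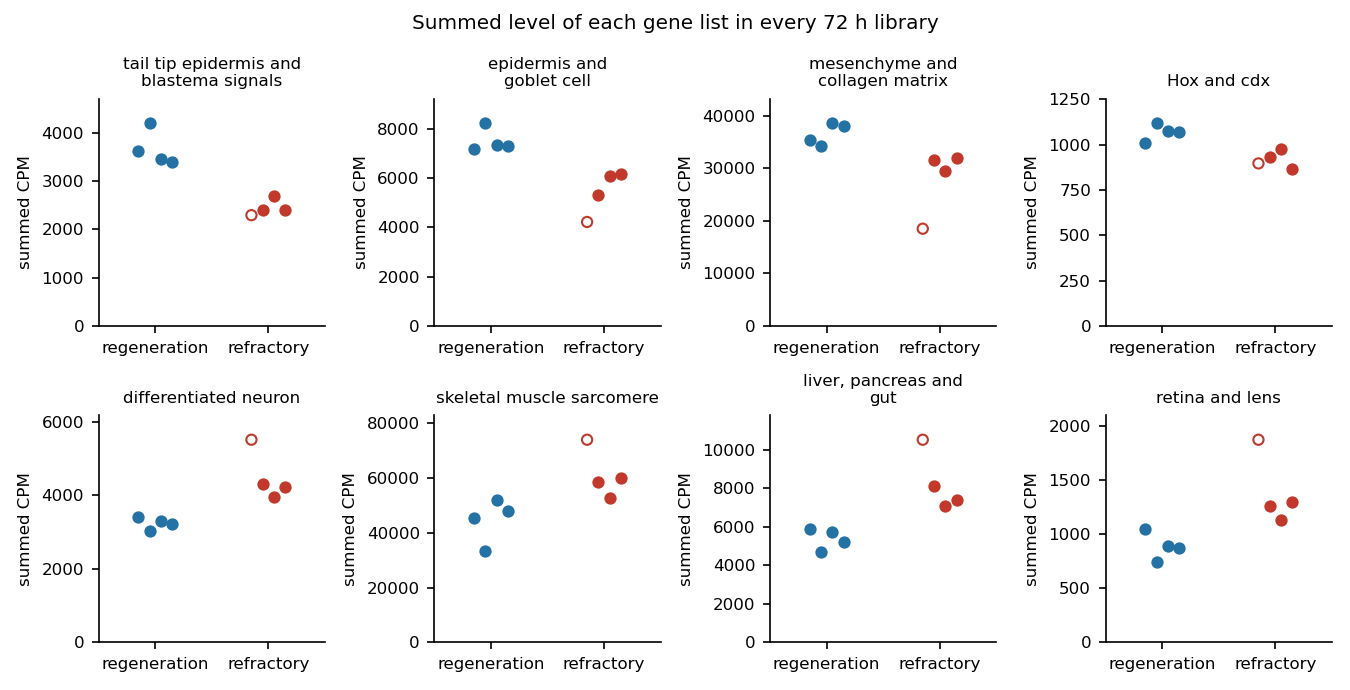
Summed CPM (y axis, from 0) of 8 gene lists in every 72 h library; blue points are the 4 regeneration libraries, filled red points the 3 refractory libraries compared, and the open red circle is refractory 72 h A, which is in no test. Tail tip, epidermal, collagen matrix and Hox sums were lower, and neuron, muscle, liver and gut, and retina sums higher, in all 3 refractory libraries than in all 4 regeneration libraries. The 8 lists are a choice from 34, and separation was not particular to them. The FGF, cell cycle, spinal cord progenitor, endothelial and immediate early sums, among others, did not overlap either. Those of the Wnt, Notch, notochord and cartilage lists, among others, overlapped.

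Of 21458 genes tested, 516 (2.4%) were called different at 72 h, 229 (1.07%) higher and 287 (1.34%) lower in refractory tails. A gene was called at an adjusted p under 0.05 in edgeR's quasi-likelihood test with Benjamini-Hochberg adjustment over all genes tested, and every adjusted p below comes from that test. The genes called lower had the larger differences, with a median of -1.06 on the log2 scale against 0.70 for those called higher. Over 2-fold there were 156 lower and 52 higher, and over 4-fold 31 and 13. The libraries of the groups did not overlap for 210 of the genes called higher and 275 of those called lower. Across all genes tested, groups did not overlap for 13.2%, with refractory libraries higher for 6.47% and lower for 6.76%. The count of calls rested on single libraries: it was 284 without refractory B, 302 without regeneration B and 336 without refractory D, and 837 with refractory A added. With all 32 libraries in the fit, 321 genes were called. Of the 110 called genes that are named here by the rule given with the processing, 45 kept their call whichever 1 of the 7 libraries was left out. With all 32 libraries, 54 of the 110 lost it (adjusted p of 0.0507 to 0.778). Those given with values here include lef1.S, spry1.L, id4.L, rbp4.L, rho.L, fetub.S, lamb3.S, krt62.L, itln1.L, lgals3.L and g6pc1.3.S. They also include pck1.S, timp-1.L, clu.L, fosl1.L, col11a1.S, fn1.S, crx.L, fetub.L, egr1.L, apoe.S and hspa5.S. The 516 genes were 511 protein-coding genes and 5 long non-coding RNAs, and 110 of them are known by an identifier without a gene name.

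**Figure D2:**
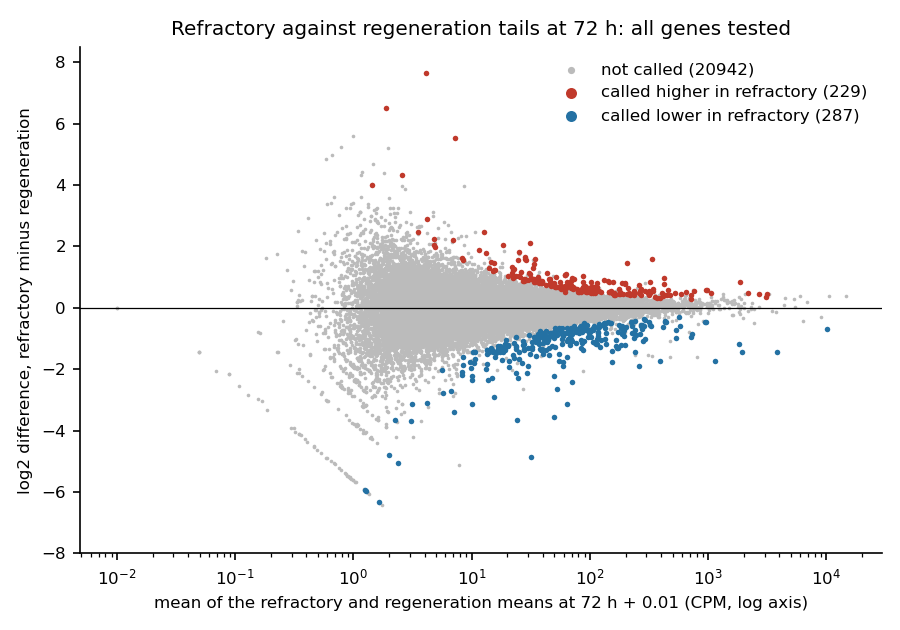
Log2 difference of refractory minus regeneration tails at 72 h (y axis) against mean level (x axis, CPM with a small constant added, log axis) for the 21458 genes tested, with the 229 genes called higher in red, the 287 called lower in blue and the rest in grey. Of the called genes, 156 lay more than 2-fold below and 52 more than 2-fold above the regeneration level.

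Of 63 measured genes of the tail tip epidermis and the blastema, 13 were called lower and 0 higher (20.6% called), and the median log2 difference was -0.48 against 0.0046 over all genes tested. In all, 47 of the 63 had a negative difference. Leaving out any 1 of the 7 libraries gave 11 to 13 genes called lower, and adding refractory A gave 15, with 0 called higher in each case. The 13 genes were msx1, msx2, dlx3, dlx5, lef1 and sp8, each with both homeologs, and vwde.L. Homeologs, marked .L and .S, are the copies of a gene that this allotetraploid frog carries on its separate subgenomes. Refractory and regeneration libraries did not overlap for any of the 13, as for 275 of all 287 genes called lower.

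The homeobox gene msx2.L, whose family marks growing appendage tips and responds to BMP, stood at 103, 82.9 and 113 CPM in refractory libraries. In regeneration libraries it stood at 244, 284, 218 and 233 CPM. All refractory values lay below all regeneration values, with a log2 difference of -1.29 ± 0.14 (SE; adjusted p = 4.33e-11). Its homeolog msx2.S differed by -1.36 ± 0.19 (adjusted p = 1.34e-07). The related msx1.S stood at 190, 225 and 175 CPM against 372, 480, 335 and 381 CPM, a log2 difference of -0.999 ± 0.12 (adjusted p = 4.51e-09), and msx1.L differed by -0.81 ± 0.16 (adjusted p = 0.000251).

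The zinc-finger factor gene sp8.L, which acts in the apical ectoderm of mouse limb buds, stood at 53.9, 41.1 and 48.8 CPM in refractory and 108, 164, 91.9 and 116 CPM in regeneration libraries. The groups did not overlap, and the log2 difference was -1.32 ± 0.18 (adjusted p = 1.36e-07). The copy sp8.S differed by -1.06 ± 0.27 (adjusted p = 0.0107), a call lost without regeneration D, refractory B or refractory C (adjusted p up to 0.0943). The Wnt transcription partner lef1.L stood at 211, 254 and 184 CPM against 308, 377, 292 and 312 CPM, with a log2 difference of -0.58 ± 0.12 (adjusted p = 0.00104). The copy lef1.S differed by a like amount, -0.59 ± 0.18 (adjusted p = 0.0468), but its call was lost when any library other than regeneration C was left out (adjusted p up to 0.264).

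The distal-less genes dlx3 and dlx5, homeobox factors of surface ectoderm and appendages, were lower in both copies. dlx3.S had a mean of 40.3 CPM in refractory and 94.5 CPM in regeneration tails, a log2 difference of -1.23 ± 0.20 (adjusted p = 8.4e-06). dlx5.L, the member with the smallest difference of the 13, differed by -0.49 ± 0.13 (adjusted p = 0.0164). vwde.L, named for its von Willebrand factor D and EGF domains, stood at 9.22, 10.1 and 9.37 CPM against 24.4, 44.6, 26.6 and 32.4 CPM. Its log2 difference was -1.74 ± 0.40 (adjusted p = 0.00353), the largest of the 13. The other distal-less genes of the list, both copies of dlx2 and dlx6, were not called. Their log2 differences were -0.11 to 0.30 (adjusted p = 0.858 to 0.998). dlx4.S, a further distal-less gene picked after its values were seen, differed by -1.79 ± 0.30 (adjusted p = 1.35e-05). Its homeolog dlx4.L differed by -1.05 ± 0.36 and was not called (adjusted p = 0.115).

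Several signals known from tail and limb tips did not pass the test. Of a panel of 25 symbols, 38 genes were measured, and the called ones were the copies of msx1, sp8 and lef1. The FGF ligand gene fgf8.S had means of 2.77 and 5.66 CPM (log2 difference -1.02 ± 0.96, adjusted p = 0.807), and fgf10.S 2.78 and 6.19 CPM (-1.15 ± 1.08, adjusted p = 0.804). With standard errors about as large as the differences, a 2-fold difference in these ligands could go uncalled. The power of the test at a few CPM was not measured. The activin subunit inhba.L had a log2 difference of -0.85 ± 0.63 (adjusted p = 0.693), sp9.L of -1.04 ± 0.62 (adjusted p = 0.566) and wnt5a.S of -0.48 ± 0.33 (adjusted p = 0.653). The notochord factor gene not.L had means of 11.4 and 37.6 CPM and a log2 difference of -1.72 ± 0.57 (adjusted p = 0.109). The hedgehog ligand shh.L, expressed in notochord and floor plate, had means of 117 and 131 CPM (-0.16 ± 0.15, adjusted p = 0.807).

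**Figure D3:**
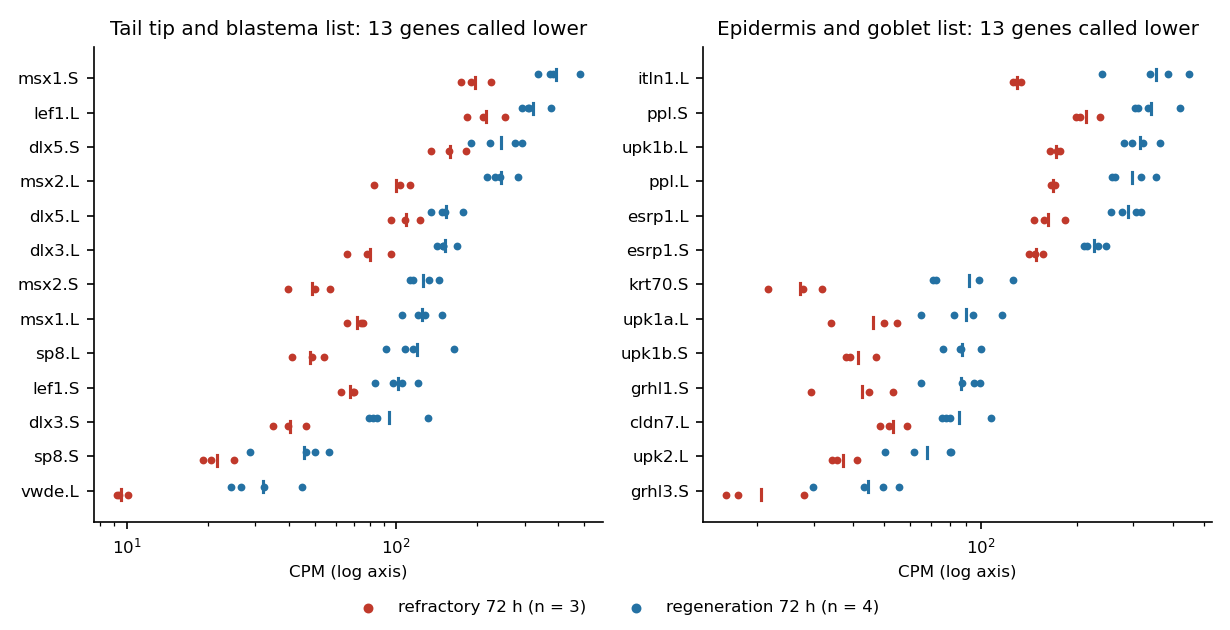
CPM (x axis, log axis) in each refractory (red, n = 3) and regeneration (blue, n = 4) library at 72 h for the 13 genes called lower of the tail tip and blastema list (left) and the 13 called lower of the epidermis and goblet cell list (right); ticks are group means. In every gene shown all red points lie below all blue points, as for 275 of all 287 genes called lower.

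In the list of the surface epidermis and its goblet cells, 13 of 71 measured genes were called lower and 2 higher (21.1% called), with a median of -0.26, and 20 of the 71 had a positive difference. Leaving out any 1 library gave 10 to 14 lower and 1 or 2 higher. With refractory A included there were 19 lower and 2 higher, and with all 32 libraries 9 and 0. The summed level of the list was 5326 to 6181 CPM in refractory and 7188 to 8237 CPM in regeneration libraries. At 0 h the list already differed, with 10 of the 71 called lower, 2 higher and a median of -0.17. The genes called lower were the keratin krt70.S, the goblet cell lectin itln1.L, the epidermal transcription factors grhl1.S and grhl3.S, the uroplakins upk1a.L, upk1b.L, upk1b.S and upk2.L, the epithelial splicing regulator esrp1.L and .S, the cornified envelope gene ppl.L and .S and the tight junction gene cldn7.L. The basal epidermal factor tp63.L, in contrast, stood at 115, 116 and 162 CPM against 138, 164, 157 and 149 CPM, and these ranges overlapped.

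krt70.S stood at 21.6, 27.7 and 31.97 CPM in refractory and 98.8, 126, 72.6 and 71.1 CPM in regeneration libraries. Refractory libraries were all lower, by -1.76 ± 0.21 on the log2 scale (adjusted p = 1.1e-08). Intelectin itln1.L stood at 134, 127 and 130 CPM against 386, 450, 240 and 339 CPM (-1.44 ± 0.26, adjusted p = 0.00229). The splicing regulator esrp1.L had means of 163 and 290 CPM (-0.83 ± 0.12, adjusted p = 2.9e-07), and ppl.L 169 and 299 CPM (-0.83 ± 0.13, adjusted p = 1.96e-06). Refractory 72 h A had 27.9 CPM of krt70.S and 186 CPM of itln1.L, both below every regeneration library.

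Further epithelial genes outside that list had large differences. The keratin krt12.2.S stood at 85.5, 137 and 104 CPM in refractory and 510, 548, 298 and 277 CPM in regeneration libraries (-1.90 ± 0.23, adjusted p = 1.5e-05), and its homeolog krt12.2.L differed by -2.21 ± 0.41 (adjusted p = 0.000695). In a fit of the 7 libraries alone these adjusted p-values were 0.0538 and 0.117. Among genes picked after their values were seen, the keratins krt7.S (-1.43 ± 0.18, adjusted p = 5.94e-05) and krt7.L (-1.17 ± 0.13, adjusted p = 2.45e-06) and the basement membrane gene frem3.L (-1.73 ± 0.29, adjusted p = 0.00129) were lower. frem3.L lost its call in the fit of the 7 libraries (adjusted p = 0.108), and krt7.S and krt7.L lost theirs with all 32 libraries (adjusted p = 0.074 and 0.0689). At 0 h krt7.S and krt7.L were already lower, by -2.06 and -1.56 (adjusted p = 2.62e-07 and 8.01e-09). Their changes to 72 h were not called (adjusted p = 0.438 and 0.584). fucolectin.S, whose name denotes a fucose-binding lectin, stood at 65.3, 61.4 and 82.1 CPM in refractory libraries, below all regeneration libraries, with -1.78 ± 0.16 (adjusted p = 1.48e-12). It was lower at 0 h too, by -1.23 (adjusted p = 1.28e-08). The galectin lgals3.L stood at 454, 506 and 518 CPM against 1014, 998, 880 and 900 CPM (-0.94 ± 0.10, adjusted p = 3.52e-12).

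Other epithelial genes were higher. The laminin chain lamb3.S, part of the anchoring laminin of basal keratinocytes, stood at 17.0, 20.3 and 16.8 CPM in refractory and 6.44, 5.25, 3.53 and 4.13 CPM in regeneration libraries (1.89 ± 0.32, adjusted p = 3.77e-05). The unused library refractory 72 h A held 4.44 CPM. The keratin krt62.L stood at 55.7, 31.9 and 64.8 CPM against 6.71, 8.14, 11.5 and 21.6 CPM (2.10 ± 0.47, adjusted p = 0.016), a call lost without regeneration A or B or refractory B or D (adjusted p up to 0.0959). At 0 h krt62.L was already higher in refractory tails, by 5.50 (adjusted p = 1.52e-05). The change of -3.40 to 72 h was not called (adjusted p = 0.0544). emp1.L (1.46 ± 0.18, adjusted p = 1.25e-06) and the membrane mucin muc1.S (0.91 ± 0.14, adjusted p = 2.3e-05), both picked after their values were seen, were higher in refractory tails, and emp1.L lost its call with all 32 libraries (adjusted p = 0.106). emp1.L and muc1.S were also higher at 0 h, by 1.38 and 0.68 (adjusted p = 1.57e-05 and 0.00263).

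Among the genes with the largest falls, hhipl2.L, related to the hedgehog-interacting protein, stood at 3.90, 7.75 and 11.3 CPM in refractory libraries. In regeneration libraries it stood at 87.8, 129, 62.4 and 83.8 CPM. The log2 difference was -3.54 ± 0.38 (adjusted p = 1.05e-11). In refractory 72 h A it stood at 10.2 CPM. The gluconeogenic gene pck1.L stood at 16.7, 15.2 and 7.44 CPM against 134, 147, 90.2 and 88.3 CPM (-3.14 ± 0.44, adjusted p = 0.000152). g6pc1.3.L, which codes for a catalytic subunit of glucose-6-phosphatase, the last step of glucose release, stood at 13.1, 5.96 and 14.1 CPM against 48.6, 75.1, 36.5 and 32.4 CPM (-2.12 ± 0.32, adjusted p = 2.11e-06). The homeologs pck1.S and g6pc1.3.S were lower too, by -1.99 ± 0.51 (adjusted p = 0.0158) and -1.93 ± 0.36 (adjusted p = 0.000162), and the call of pck1.S was lost without regeneration A or B or refractory C or D (adjusted p up to 0.148).

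bhlha9.S, a basic helix-loop-helix factor of the limb bud's apical ridge in mouse, stood at 5.67, 20.6 and 16.5 CPM in refractory and 98.5, 122, 61.0 and 79.7 CPM in regeneration libraries (-2.64 ± 0.32, adjusted p = 3.58e-08). tll2l.L, of the tolloid protease family, stood at 19.9, 21.8 and 24.5 CPM against 133, 181, 82.2 and 80.4 CPM (-2.43 ± 0.25, adjusted p = 1.1e-08). pof1b.S, an actin-binding epithelial protein, stood at 7.45, 13.1 and 4.69 CPM against 44.0, 48.3, 37.2 and 34.3 CPM (-2.28 ± 0.32, adjusted p = 1.6e-07). In each of the 3 genes the call was kept whichever library was left out. Groups without overlap were a condition for a place among the 15 largest falls. The further genes of the 15 largest falls, rasgef1a.S, mpnd.S, mfsd5.S, sytl4.S, il17ra.S, lgals3.S, capn8.3.L and rdh7.L, differed by -3.69 to -2.10 at means of at most 38.6 CPM. Of these, mpnd.S and capn8.3.L kept their call whichever library was left out, and the other 6 lost it without at least 1 library.

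The secreted Wnt antagonist sfrp2.L, named from the Wnt list and not among the 15 largest rises, was abundant. It stood at 581, 308 and 616 CPM in refractory and 158, 145, 193 and 177 CPM in regeneration libraries, a log2 difference of 1.58 ± 0.19 (adjusted p = 1.25e-06). Refractory 72 h A held 108 CPM, below all regeneration libraries, and the log2 difference was 1.25 with that library included. Among the 15 largest rises, the decoy receptor gene tnfrsf6b.L stood at 30.1, 32.5 and 26.7 CPM against 8.32, 8.67, 6.36 and 5.08 CPM (2.05 ± 0.28, adjusted p = 1.03e-07). hes2.L, a hairy-related repressor, stood at 46.8, 31.6 and 51.0 CPM against 20.9, 16.8, 10.1 and 6.67 CPM (1.65 ± 0.33, adjusted p = 0.000376). timp-1.L, an inhibitor of matrix metalloproteinases, stood at 28.7, 52.2 and 35.3 CPM against 11.5, 11.0, 11.8 and 9.85 CPM (1.80 ± 0.34, adjusted p = 0.000156), while refractory 72 h A held 5.39 CPM.

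The secreted chaperone clusterin, clu.L, stood at 46.8, 68.0 and 40.0 CPM in refractory and 11.3, 13.4, 19.1 and 24.1 CPM in regeneration libraries (1.60 ± 0.39, adjusted p = 0.00734). The macrophage and pigment cell glycoprotein gpnmb.L stood at 42.2, 62.3 and 23.98 CPM against 11.0, 9.45, 18.1 and 17.8 CPM (1.60 ± 0.34, adjusted p = 0.00128). Both calls were lost without refractory C, with adjusted p of 0.158 and 0.0977. adss1.S, an adenylosuccinate synthase of muscle, stood at 14.2, 10.1 and 10.2 CPM against 3.76, 2.10, 1.18 and 2.86 CPM (2.21 ± 0.44, adjusted p = 0.000356). The AP-1 gene fosl1.L stood at 14.2, 4.77 and 4.96 CPM against 2.69, 0.26, 1.18 and 2.54 CPM (2.24 ± 0.44, adjusted p = 0.00035), with an adjusted p of 0.105 without refractory B. gng7.S had 79 counts in the refractory libraries and 0 in the regeneration libraries, at least 40.1-fold higher against a floor of 3 counts over the group, but refractory 72 h A also had 0 CPM. The genes lingo4.L, phyhdlb.L, ch25h.L, ch25h.S and cnfn.1.L were called higher by 1.63 to 2.91 at means of at most 12.6 CPM, and all but lingo4.L lost the call without at least 1 library.

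Of all genes tested, 2.4% were called. The share was larger over the 34 lists together, with 111 of 1677 distinct members called. Called genes were also more abundant. Their median level was 79.4 CPM for those higher and 59.2 CPM for those lower, against 10.5 CPM over all genes tested. The part of abundance in the list shares was not tested. The shares were 2.94% in the FGF, 3.12% in the Notch and 0% in the Hedgehog pathway list. For BMP, TGF-beta and activin genes the share was 2.74%. In the Wnt pathway, 2 of 84 genes were called higher, sfrp2.L and sfrp1.S, both secreted antagonists, and 3 lower, the receptor fzd10.L and both lef1 copies (5.95% called). The call of sfrp1.S was lost without regeneration B or D or refractory D (adjusted p up to 0.213). fzd10.L stood at 43.3, 66.5 and 41.9 CPM against 81.6, 104, 81.7 and 75.0 CPM (-0.76 ± 0.19, adjusted p = 0.00968), a call lost without regeneration B or refractory B or D (adjusted p up to 0.122). In the FGF pathway 1 of 34 genes was called, the feedback inhibitor spry1.L (-1.32 ± 0.39, adjusted p = 0.0468), whose call was lost without regeneration A, B or D or refractory C or D (adjusted p up to 0.299). Among 73 genes of BMP, TGF-beta and activin signalling, the BMP pseudo-receptor bambi.L was lower, at 29.4, 19.1 and 14.6 CPM against 64.4, 65.1, 44.1 and 63.8 CPM (-1.50 ± 0.25, adjusted p = 1.37e-05). The inhibitor of differentiation id4.L was higher (0.60 ± 0.16, adjusted p = 0.0214), a call lost without regeneration D or refractory B or C (adjusted p up to 0.357). In the Notch pathway hes2.L was the called gene of 32, and in the Hedgehog pathway edgeR and DESeq2 called 0, with 1 of the 27 tested by edgeR at an unadjusted p under 0.05.

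Genes of connective tissue moved in both directions. Of 100 measured genes of mesenchyme and collagen matrix, 6 were called higher and 9 lower (15% called), with a median of 0.04, and leaving out any 1 library gave 3 to 6 higher and 6 to 8 lower. Lower were the fibril-associated collagen col14a1.S, the elastic fibre genes fbn2.L, emilin1.S, mfap2.S and fbln1.L, the basement membrane collagen col18a1.S and the small proteoglycans dcn.L, dcn.S and ogn.L. col14a1.S stood at 40.8, 54.0 and 42.2 CPM in refractory and 94.8, 96.4, 105 and 85.8 CPM in regeneration libraries (-1.06 ± 0.19, adjusted p = 6.01e-05). Higher were the related collagen col12a1.L, the transcription factor foxc1.S, smooth muscle actin acta2.L and .S, vim.L and fn1.S. col12a1.L stood at 40.1, 45.6 and 55.1 CPM against 18.8, 13.1, 18.4 and 25.7 CPM (1.31 ± 0.25, adjusted p = 0.000173). Fibronectin fn1.S, the provisional wound matrix protein, stood at 2343, 2402 and 2866 CPM against 2083, 2148, 1667 and 1361 CPM (0.48 ± 0.10, adjusted p = 0.000543), while refractory 72 h A held 898 CPM and the call was lost with that library included. The sum of the list was 29400 to 32020 CPM in refractory and 34310 to 38550 CPM in regeneration libraries.

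In cartilage and bone genes, 3 of 39 were called higher, sox5.L, sox9.S and cnmd.L, and col11a1.S was lower (10.3% called). The calls of sox5.L and cnmd.L were lost without refractory B, among others (adjusted p up to 0.0873 and 0.599). sox9.S, a master factor of cartilage that is also expressed in notochord and spinal cord, stood at 455, 377 and 413 CPM against 273, 261, 259 and 293 CPM (0.61 ± 0.11, adjusted p = 4.64e-05). col11a1.S stood at 265, 246 and 279 CPM against 370, 391, 449 and 358 CPM (-0.58 ± 0.13, adjusted p = 0.00257). Of 67 genes of matrix proteases and wound matrix, fn1.S was among those called higher and mmp3.L was lower (4.48% called). mmp3.L lost its call when any library other than regeneration C or refractory C was left out (adjusted p up to 0.354). The collagenase gene mmp8.S had means of 65.8 and 32.3 CPM, with an adjusted p of 0.0616.

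In the lists of neurons, spinal cord progenitors and muscle, the genes that passed the test were higher in refractory tails. Of 60 measured neuronal genes, 10 were called higher and 0 lower (16.7% called), with a median of 0.48, and 52 of the 60 had a positive difference. Without regeneration B or without refractory D 3 were called higher, the lowest count on leaving out 1 library. With refractory A included 17 were called higher. The 10 genes were the motor neuron factor isl1.L, the synaptic vesicle genes syp.L, syn1.L, syn1.S, vamp2.L and vamp2.S, the growth-associated stmn2.L, stmn3.L and stmn3.S, and the tubulin tubb2b.S. stmn3.S stood at 122, 101 and 97.9 CPM in refractory and 61.2, 67.5, 73.3 and 73.4 CPM in regeneration libraries (0.63 ± 0.15, adjusted p = 0.00469), and its call was lost without refractory B (adjusted p = 0.111). The summed neuronal level was 3952 to 4295 CPM against 3030 to 3399 CPM, and 5509 CPM in refractory 72 h A. Retina also expresses such genes, and the retina and lens sum moved the same way, but its part in the neuronal sum was not tested.

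Of 42 genes of spinal cord progenitors, fabp7.L, vim.L, sox9.S and ncam1.S were called higher and 0 lower (9.52% called), with a median of 0.34, and 1 was called without refractory D. Of 79 sarcomere genes, neb.S, myoz2.S, tpm2.S and tpm2.L were called higher and 0 lower (5.06% called), with a median of 0.31, and 1 was called without refractory B. The sarcomere sum was 52620 to 60050 CPM against 33490 to 52090 CPM, with regeneration B lowest, and 73930 CPM in refractory 72 h A. Nebulin neb.S, a ruler of the thin filament, stood at 43.6, 32.2 and 34.5 CPM against 11.8, 5.51, 13.9 and 18.7 CPM (1.56 ± 0.33, adjusted p = 0.00134). Its homeolog neb.L, at means of 407 and 328 CPM, did not pass (adjusted p = 0.713). Among 26 genes of myogenic factors and satellite cells, the muscle determination factor myod1.L had a difference of 0.35 ± 0.12 (adjusted p = 0.111).

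Genes of the eye and the liver made up part of the genes called higher. In the retina and lens list 3 of 47 were called higher, the photoreceptor factors crx.L and crx.S and rho.L, and 0 lower (6.38% called), and 43 of the 47 had a positive difference. Leaving out regeneration B, regeneration D, refractory B or refractory D gave 1 called each time, and 7 were called with refractory A included. crx.L stood at 120, 114 and 105 CPM in refractory and 70.1, 57.5, 64.3 and 60.3 CPM in regeneration libraries (0.84 ± 0.16, adjusted p = 0.000324). In the liver, pancreas and gut list 8 of 40 were called higher and 0 lower (20% called), with a median of 0.50. They were the plasma protein genes f2.S, ambp.L, fetub.L, fetub.S, ttr.L, ttr.S, serpina1.S and apoa1.S. Of the 40, 33 had a positive and 7 a negative difference. Members that were not called include apob.L and apob.S (log2 differences of 0.06 and 0.07) and cdx2.L and cdx2.S (-0.33 and -0.32). Without refractory B 3 were called, and 14 with refractory A included. fetub.L stood at 1272, 1098 and 1148 CPM against 824, 738, 848 and 751 CPM (0.57 ± 0.10, adjusted p = 3.28e-05), and 1470 CPM in refractory 72 h A.

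Of 54 Hox and cdx genes, hoxa9.S and hoxc10.L were called lower and 0 higher, with a median of -0.23. That is 3.7% called, against 2.4% of all genes tested. hoxa9.S stood at 6.03, 29.5 and 11.0 CPM in refractory and 40.0, 42.3, 41.5 and 36.2 CPM in regeneration libraries (-1.35 ± 0.34, adjusted p = 0.00914), and its call was lost without refractory B or D (adjusted p up to 0.222). hoxc10.L differed by -0.82 ± 0.24 (adjusted p = 0.0369) and lost its call without regeneration B or D or refractory B or D (adjusted p up to 0.238). Without refractory D 0 were called. The tail gene hoxc13.L had means of 43.2 and 57.0 CPM and a difference of -0.40 ± 0.30 (adjusted p = 0.697). The sum of the list was 867.4 to 975.1 CPM against 1011 to 1118 CPM. In retinoic acid metabolism the degrading enzyme cyp26a1.S was lower (-1.10 ± 0.25, adjusted p = 0.00311) and the plasma carrier rbp4.L, a liver product, higher (0.84 ± 0.20, adjusted p = 0.00648). The call of cyp26a1.S was lost without refractory D (adjusted p = 0.0888) and that of rbp4.L without regeneration B or refractory B (adjusted p up to 0.0835).

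Of 78 immediate early genes, 6 were called higher and 0 lower (7.69% called): fosl1.L, egr1.L, egr1.S, jun.S, zfp36.L and zfp36.S. With all 32 libraries in the fit 1 was called. egr1.L, a growth-factor-induced zinc finger gene, stood at 206, 201 and 202 CPM in refractory and 122, 140, 113 and 74.0 CPM in regeneration libraries (0.85 ± 0.17, adjusted p = 0.00467), and jun.S had means of 329 and 216 CPM (0.61 ± 0.11, adjusted p = 5.24e-05). The sum of the list was 4427 to 4699 CPM against 3694 to 4111 CPM, but 3702 CPM in refractory 72 h A. At 0 h the list already differed, with 10 of the 78 called higher and 0 lower, against 2.42% of all genes called. Its median was 0.39 at 0 h and 0.15 at 72 h, and the 0 h sums were 3617 to 4136 against 3004 to 3227 CPM. Called higher at both times were egr1.L, jun.S, zfp36.L and zfp36.S, while fosl1.L and egr1.S were not called at 0 h. Among leukocyte and complement genes, the macrophage receptor vsig4.L and havcr1.L were called higher and apoe.S lower of 43 (6.98% called). The calls of vsig4.L and havcr1.L were lost without refractory C, among others for havcr1.L (adjusted p up to 0.289 and 0.492). apoe.S stood at 748, 826 and 825 CPM against 1122, 1008, 1202 and 1109 CPM (-0.47 ± 0.09, adjusted p = 0.000286). Of 43 inflammatory mediators, cfh.L and cebpd.S were higher and ptgs1.S lower (6.98% called). The call of cfh.L was lost whichever library was left out (adjusted p up to 0.144), as was that of egr1.S (up to 0.142). The calls of cebpd.S and ptgs1.S were lost without regeneration A or B or refractory B, among others (adjusted p up to 0.263 and 0.234).

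The endoplasmic reticulum chaperone genes hsp90b1.S and hspa5.S were called lower. hsp90b1.S stood at 31.9, 51.3 and 45.8 CPM in refractory and 117, 79.0, 94.7 and 79.1 CPM in regeneration libraries (-1.10 ± 0.22, adjusted p = 0.000356). hspa5.S stood at 161, 209 and 200 CPM against 265, 251, 287 and 252 CPM (-0.47 ± 0.12, adjusted p = 0.0131), a call lost without regeneration C or refractory B (adjusted p up to 0.226). The other copies hsp90b1.L and hspa5.L differed by -0.48 and -0.46 (adjusted p = 0.103 and 0.0997). In all, 3 of 69 genes of heat shock and endoplasmic reticulum stress were lower, the third being the cytosolic co-chaperone dnajb1.L, and hspb1.L was higher (5.8% called). Of 60 glycolysis and hypoxia genes, pkm.L, pgam2.L and aldoa.L were called higher (5% called). pgam2 and aldoa are enzymes abundant in muscle, and the sarcomere sum was higher beside them, but its part was not tested. At 0 h aldoa.L and pgam2.L were called lower in refractory tails, by -0.51 and -0.58 (adjusted p = 0.000347 and 0.0109). In the whole list 9 of 60 were called lower at 0 h and 1 higher. The 0 h sums of the list were 12170 to 14990 CPM in refractory and 17730 to 19170 CPM in regeneration libraries. The calls of dnajb1.L, hspb1.L, pkm.L, pgam2.L, aldoa.L and pmel.L were each lost without at least 3 of the 7 libraries (adjusted p up to 0.143 to 0.486). In the pigment cell list pmel.L was higher and pnp.S lower (-1.55 ± 0.25, adjusted p = 8.52e-06) of 21 (9.52% called).

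No gene of the cell cycle (108 tested, median -0.18), oxidative phosphorylation (111), apoptosis (39), endothelial (39), erythroid (38) or lymphoid and interferon (22) lists was called by edgeR. At an unadjusted p under 0.05 there were 7, 6, 6, 6, 3 and 0 genes in these lists, and DESeq2 called 0, 2, 1, 1, 1 and 0. The proliferation markers mki67.L and mki67.S differed by -0.17 ± 0.15 and 0.34 ± 0.14 (adjusted p = 0.78 and 0.285), and cdk1.L by -0.27 ± 0.24 (adjusted p = 0.781). The cell cycle sum was 3340 to 3351 CPM in refractory and 3499 to 3692 CPM in regeneration libraries. The erythroid sum split the regeneration libraries, at 5717 and 5708 CPM in A and B and 2148 and 1900 CPM in C and D, against 1648 to 1953 CPM in the refractory libraries. In the larval skin and metamorphosis list 3 of 22 were called higher, krt62.L and both ttr copies (13.6% called). At 0 h 9 of these 22 were called higher and 0 lower, against 2.42% of all genes called. In the tendon list both egr1 copies were higher and col11a1.S lower of 12 (25% called). In the multiciliated cell and ionocyte list tuba1a.L was higher of 58 (1.72% called). In the notochord list cav1.S and sox9.S were higher of 31 (6.45% called). The call of cav1.S was lost without regeneration A or B or refractory B or D (adjusted p up to 0.289).

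Part of the differences were present at amputation. At 0 h, 520 genes (2.42%) were called between the periods, 199 (0.927%) higher and 321 (1.5%) lower in refractory tails, and this comparison shares no library with the 72 h one. The 0 h count was 263 without regeneration 0 h B, 340 without regeneration 0 h C and 142 with all 32 libraries in the fit. Of the genes called at 72 h, 119 were called at 0 h, which is 23.1% of the 72 h calls and 22.9% of the 0 h calls. Among them 35 were higher and 70 lower at both times, and 14 had opposite directions. Of the 229 genes called higher at 72 h, 183 had the same sign at 0 h, with a median of 0.29, and of the 287 called lower 222 had, with a median of -0.40. Of the 13 tail tip genes called lower at 72 h, dlx3.S, msx1.S, msx2.L and sp8.L were called lower at 0 h, by -0.75, -0.47, -0.52 and -0.65 on the log2 scale.

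For some genes the difference was called at both times. tll2l.L had means of 133 ± 41.6, 132 ± 7.87, 145 ± 24.8 and 119 ± 47.9 CPM (SD) at 0, 0.5, 6 and 72 h in regeneration tails, and of 24.2 ± 3.45, 25.5 ± 5.18, 20.6 ± 6.14 and 22.1 ± 2.35 CPM in refractory tails. krt70.S and itln1.L were also lower at 0 h, by -1.60 ± 0.20 (adjusted p = 2.71e-08) and by -2.11 (adjusted p = 1.92e-05), and the tests of the change in difference gave adjusted p of 0.973 and 0.674. The chaperone gene hspa5.S differed by -1.47 at 0 h (adjusted p = 5.35e-17) and by -0.47 at 72 h, and that narrowing of 1.0 was called (adjusted p = 5.57e-05).

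The difference between the periods changed between 0 and 72 h for 178 genes (0.83%), 80 (0.373%) towards higher and 98 (0.457%) towards lower in refractory tails. Of the genes called at 72 h, 27 of those higher and 44 of those lower were among them in the same direction, and 3 in the opposite direction. hhipl2.L had means of 3.81, 3.57, 3.62 and 90.8 CPM at 0, 0.5, 6 and 72 h in regeneration tails and of 6.33, 3.82, 4.66 and 7.65 CPM in refractory tails. Its difference changed by -4.31 ± 0.56 (adjusted p = 7.66e-08). sfrp2.L had means of 76.3 and 168 CPM at 0 and 72 h in regeneration tails and of 59.6 and 502 CPM in refractory tails, a change of 1.94 (adjusted p = 5.72e-05). msx2.L had 149 and 245 CPM in regeneration and 104 and 99.7 CPM in refractory tails, a change of -0.77 (adjusted p = 0.0288). Of the 13 tail tip genes called lower at 72 h, msx2.L alone had a called change. The rest had adjusted p of 0.106 to 0.939 in that test.

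pck1.L and both g6pc1.3 copies were among the genes whose difference changed, and pck1.S was not (adjusted p = 0.587). pck1.L was higher in refractory tails at 0 h, by 2.12 (adjusted p = 0.00726), and lower at 72 h, a change of -5.27 (adjusted p = 4.36e-05). Its means at 0, 0.5, 6 and 72 h were 14.4, 34.7, 44.8 and 115 CPM in regeneration tails and 62.8, 70.2, 17.7 and 13.1 CPM in refractory tails. g6pc1.3.L was higher by 1.68 at 0 h (adjusted p = 0.000557) and lower at 72 h, a change of -3.81 (adjusted p = 1.73e-08). tnfrsf6b.L and lamb3.S, at 30.5 and 47.9 CPM in regeneration and 139 and 215 CPM in refractory tails at 6 h, had lower means at 72 h, where the refractory 29.8 and 18.04 CPM stood above the regeneration means of 7.11 and 4.84 CPM.

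**Figure D4:**
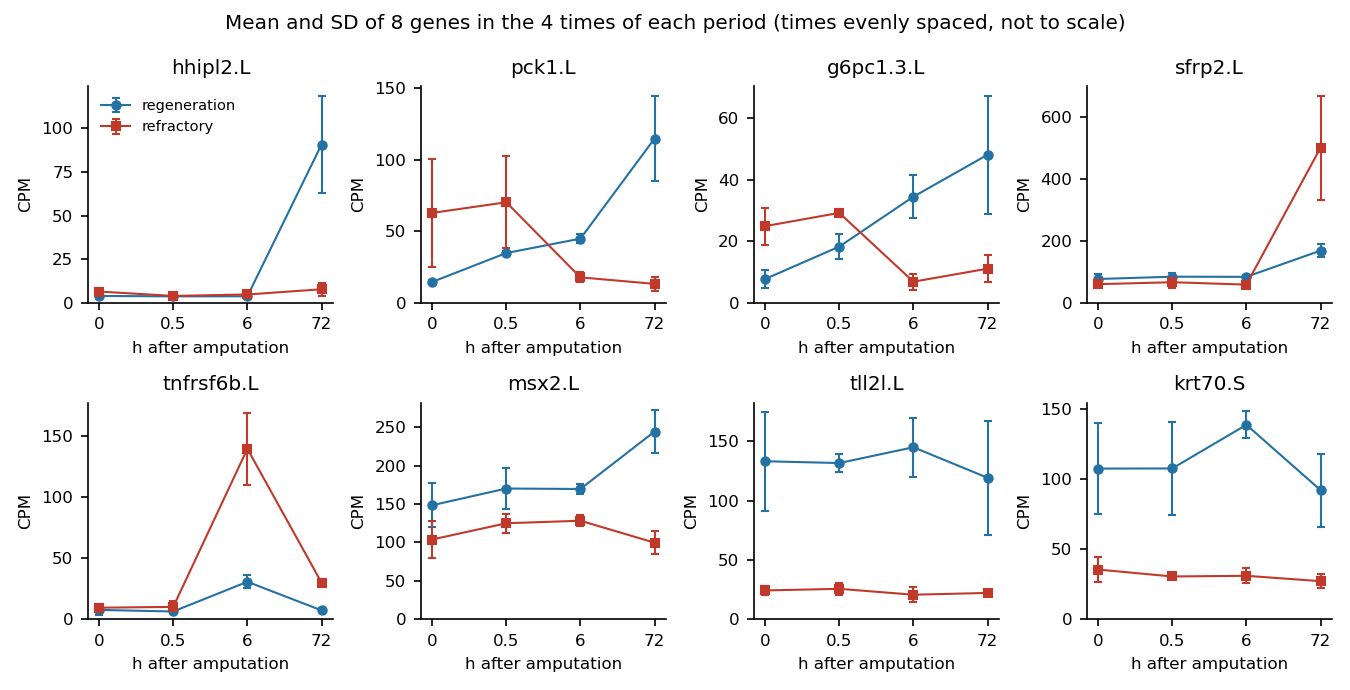
Mean CPM (y axis, from 0) with SD of 8 genes at 0, 0.5, 6 and 72 h after amputation (x axis, evenly spaced, not to scale) in regeneration (blue circles) and refractory (red squares) tails, 3 or 4 libraries a point. hhipl2.L reaches 90.8 CPM at 72 h in regeneration tails and stays at 7.65 CPM in refractory tails, while the means of tll2l.L and krt70.S are lower in refractory tails at every time.

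**Figure D5:**
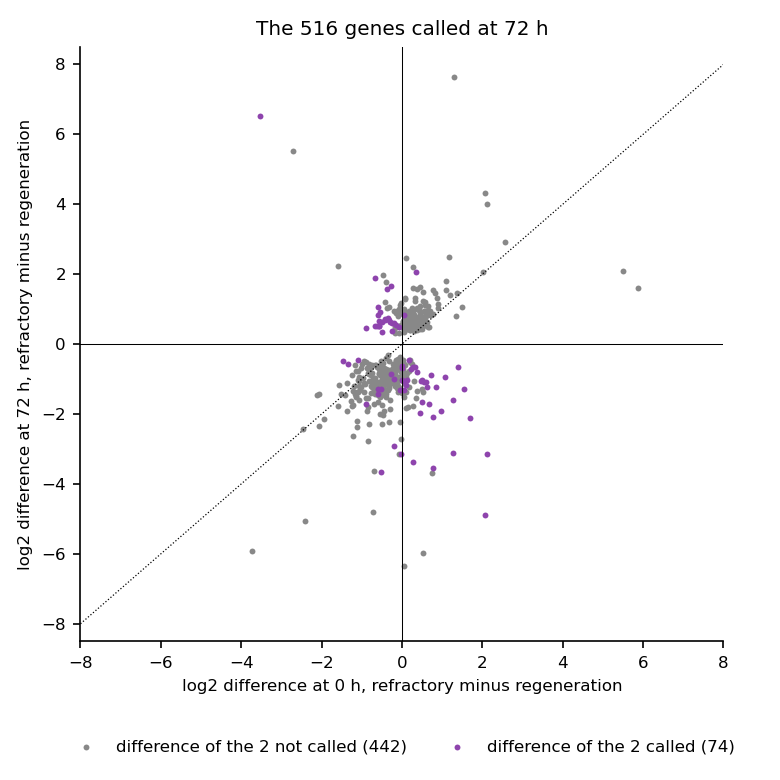
Log2 difference of refractory minus regeneration tails at 72 h (y axis) against that at 0 h (x axis) for the 516 genes called at 72 h; purple marks genes whose difference changed between 0 and 72 h at an adjusted p under 0.05, and the dotted line marks equal differences. Of the genes called higher 183 and of those called lower 222 have the same sign at 0 h.

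Homeologs were compared where at least 1 copy was called. Among 5650 pairs with both copies tested, 266 had at least 1 copy called. In 44 pairs both were called, 18 higher and 25 lower in both copies, and efs was the exception, with efs.L at 0.87 and efs.S at -1.40. In 222 pairs 1 copy was called, and in 183 of these the other copy had the same sign. Near-identical copies can share reads, and how the counting treated them is not given in the sources used here.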

How the data were processed

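Per the labels' protocols, each sample pooled the RNA of 20 embryos, of which 100 ng was used to build a library with Lexogen's SENSE Total RNA-Seq chemistry, sequenced on an Illumina NextSeq 500 with paired reads of 76 bases. Among the tools in the submitters' processing notes are STAR 2.7.9a and HTSeq 0.6.1p1, and the same notes list DESeq2 1.32.0 and R 4.1.0, with no role given here. No genome build or annotation is named in the sources used here, and positions are therefore left out. The counts are unnormalized reads per gene as deposited by the authors, in separate tables for the periods. The authors' normalized tables hold a signal, the raw counts of a library divided by 1 size factor, for 27 of the 32 libraries, and they were used to select libraries and to read the factors. The sources used here give no reason for the 5 libraries they lack.

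The counts of the 27467 genes listed in both raw tables were tested in R 4.3.3 with edgeR 4.0.16. Genes present in a single raw table (813 and 1023) held at most 0.0319% of a 72 h library's counts. Libraries were scaled by TMM, genes were filtered with filterByExpr by group (minimum count 10), and 1 robust quasi-likelihood model was fitted to 8 groups of period and time over the 27 libraries, with 19 residual degrees of freedom and a common biological coefficient of variation of 0.339. The contrasts were refractory minus regeneration at 72 h, the same at 0 h, and the difference of both. P-values are two-sided and adjusted by Benjamini-Hochberg within a contrast, and they measure the spread between the samples as labelled. The standard error is the size of the log2 difference divided by the square root of the F statistic. CPM of refractory 72 h A comes from a scaling that includes that library.

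Genes were assigned to 34 lists by symbol, ignoring the suffixes .L and .S, so that homeologs count separately. The libraries compared, the lists and the rule for named genes were chosen with earlier results of these data known. The rule took the 15 largest differences in each direction among called genes that have a gene symbol, reach a mean of 5 CPM in a group and separate all libraries of the groups. From every list it took as many as 3 called genes per direction, and with homeologs and a panel of 25 symbols this made 194 genes. Genes said to be picked after their values were seen fall outside it. The model was tested on simulated counts. Counting intervals and floors cover counting error alone. The alternatives were all 32 libraries, the compared libraries alone, median-of-ratios size factors, no filter and a stricter filter on low counts, DESeq2 1.42.0, a replicate block, a stricter threshold, a test against a 2-fold difference and leaving out each library. Adding refractory 72 h A to the fit was chosen after seeing the data. Some results are not reported here.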

Additional observations from a re-analysis of the deposited data

Results flagged for a closer look

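Of the named genes, 22 had a difference between the periods at 72 h that differed from that at 0 h by the test of the change itself (edgeR, adjusted p under 0.05). The change was towards lower levels in refractory tails for hhipl2.L (-4.31), mpnd.S (-3.66), pck1.L (-5.27), sytl4.S (-4.38), g6pc1.3.L (-3.81), g6pc1.3.S (-2.89), rdh7.L (-2.87), cyp26a1.S (-1.70), col14a1.S (-1.10) and msx2.L (-0.77), on the log2 scale. It was towards higher levels for tnfrsf6b.L (1.70), lamb3.S (2.57), hes2.L (1.93), sfrp2.L (1.94), pmel.L (1.14), pgam2.L (1.11), hspa5.S (1.0), hspa5.L (0.90), aldoa.L (0.86), myoz2.S (0.82), aldoa.S (0.69) and fn1.S (0.55).

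Single regeneration libraries stood far from the other 3 of their group in 3 of 110 called genes and 3 of 34 list sums, where chance alone gives about 5% of groups. lgals3.S stood highest in regeneration D at 22.2 CPM, id4.L lowest in D at 61.0 CPM and bambi.L lowest in C at 44.1 CPM. The epidermis and goblet cell sum was highest in regeneration B at 8237 CPM, the oxidative phosphorylation sum lowest in B at 7914 CPM and the apoptosis sum highest in D at 966.4 CPM.

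The library refractory 72 h A, which is in no comparison, held more than 1.2 times the summed level of every other 72 h library for 5 lists. Its sums were 5509 CPM for neurons, 73930 CPM for sarcomere genes, 506.7 CPM for pigment cells, 1872 CPM for retina and lens and 10510 CPM for liver, pancreas and gut. It also stood below all 7 other libraries for the mesenchyme and collagen matrix sum (18490 CPM), the matrix protease and wound matrix sum (3004 CPM) and the sum of BMP, TGF-beta and activin genes (3069 CPM), among other lists.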

How the results depend on the processing

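The count of 516 genes called at 72 h became 321 with all 32 libraries, 837 with refractory 72 h A added, 793 with DESeq2, 278 at an adjusted p under 0.01 and 14 when tested against a 2-fold difference. It stayed within 1.5 times of 516 in a fit of the 7 libraries (632), with median-of-ratios size factors (522), without a filter (601) and with a stricter one (572). Leaving out 1 library gave 284 to 496. The count of 520 at 0 h became 142 with all 32 libraries, of which 58.5% were higher in refractory tails against 38.3%, 343 with the compared libraries alone and 876 with DESeq2, and leaving out 1 library gave 263 to 574. The count of 178 changes between the times became 99 with all 32 libraries, of which 25.3% were towards higher against 44.9%, and 303 with DESeq2, and leaving out 1 library gave 120 to 229. Of 1677 list members tested, 111 were called, and with all 32 libraries 72 of 1660. The cause of these shifts was not tested. Of 110 named called genes, 45 kept the call in all 7 omissions, 51 in every other setting that tested them (8 at most, 6 for gng7.S and 7 for mpnd.S) and 27 in both, and 0 changed direction under any alternative run.

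The letters showed no pairing of refractory with regeneration libraries at 72 h: same-lettered libraries had correlations of deviations of -0.0574, -0.017 and -0.019. Pairing by letter across times was not examined in this way. With the letter as a replicate block the counts were 588, 528 and 226, and 8 of the 110 named calls were lost.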
